A study of Mus musculus with 4 samples.

Results

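The *Hox* genes of the 4 mouse clusters were examined in lists of Runx2 ChIP-Seq peaks from differentiating osteoblasts. A total of 38 *Hox* genes, of 22380 protein-coding genes in the annotation, were included: 10 of *Hoxa*, 10 of *Hoxb*, 9 of *Hoxc* and 9 of *Hoxd*. A Runx2 peak was counted for a gene when it overlapped by at least 1 bp the gene body widened by 5 kb on each side, so a peak between neighbouring genes counts for each of them. Runx2 chromatin was immunoprecipitated with the M70 antibody from MC3T3-E1 subclone 4, a preosteoblast line of C57BL/6 mouse calvaria. The cells were proliferating at day 0, matrix-depositing at day 9 and mineralizing at day 28, after differentiation in ascorbic acid and beta-glycerophosphate. All 3 time points therefore come from 1 cloned line. The 2 replicates of a time point were pooled by the authors before peaks were called, so each time point has a single list, no value below has a replicate error, and no test was made between time points. The lists hold no read counts per peak, read depth was not used here, and the input DNA, taken from day 9 cells, was not analysed here.

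*Hox* genes encode homeodomain transcription factors that give cells their position along the body axis and the limb. They lie in clusters in which the order of the genes on the chromosome follows the order of their expression domains, from anterior genes with low paralog numbers to posterior genes with high ones. Much of the skull vault, from which MC3T3-E1 cells derive, is formed by cells that do not express *Hox* genes. Runx2 is the transcription factor required for osteoblast differentiation, and its runt domain recognizes the core motif TGTGGT.

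Runx2 peaks were found at *Hox* genes at every time point, with 9 *Hox* peaks among 25457 at day 0, 31 among 60596 at day 9 and 25 among 40330 at day 28. Of the peaks in all widened protein-coding genes they were 0.0488%, 0.0723% and 0.0864%, while the widened *Hox* genes covered 0.0391% of that sequence. The peaks merged into 34 regions when those of different lists that shared at least 1 bp were joined. Of these regions, 14 lay in *Hoxa*, 9 in *Hoxb*, 9 in *Hoxc* and 2 in *Hoxd*.

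The sequences at the centres of 5 regions are shown first because these were the ones of 34 with TGTGGT, or its reverse complement ACCACA, within 50 bp of a peak centre. All are from the plus strand of NCBIM37 (mm9), 5′ to 3′, around the centre of the day 9 peak, with the motif in capitals. The *Hoxa3* region lay in an annotated exon, so its motif is printed with a short surround.
*Hoxb3* intron, chr11:96195609-96195708: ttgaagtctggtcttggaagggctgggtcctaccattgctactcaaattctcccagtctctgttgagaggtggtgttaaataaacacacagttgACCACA
*Hoxc9* promoter, chr15:102806318-102806417: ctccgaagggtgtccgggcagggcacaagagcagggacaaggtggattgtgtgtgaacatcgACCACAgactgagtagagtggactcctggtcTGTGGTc
*Hoxc6* intron, chr15:102833333-102833432: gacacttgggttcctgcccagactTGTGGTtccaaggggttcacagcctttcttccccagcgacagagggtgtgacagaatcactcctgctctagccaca
*Hoxc4* intron, chr15:102849940-102850039: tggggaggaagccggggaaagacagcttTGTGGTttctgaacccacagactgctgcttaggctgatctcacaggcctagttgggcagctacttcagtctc
*Hoxa3* body, chr6:52130606-52130635: cccacgctatacACCACAgccactgatgaa
For contrast, 2 regions in introns with high-ranking day 9 peaks and no such motif near the centre are given in the same way.
*Hoxb3* second region, chr11:96203341-96203440: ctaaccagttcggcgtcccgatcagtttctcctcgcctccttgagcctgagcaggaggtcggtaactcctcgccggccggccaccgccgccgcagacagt
*Hoxa3* intron, chr6:52134770-52134869: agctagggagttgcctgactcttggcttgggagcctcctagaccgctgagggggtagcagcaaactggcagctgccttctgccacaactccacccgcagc
The *Hoxc9* window held the motif on both strands, and each of the other 4 held it once.

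Along the clusters, peaks at days 9 and 28 were densest over *Hoxa* and sparsest over *Hoxd*. At day 9 there were 14 peaks at *Hoxa*, or 13.1 per 100 kb of widened genes (exact Poisson 95% interval 7.15 to 21.9), against 2 at *Hoxd*, or 1.96 per 100 kb (0.237 to 7.07). *Hoxb* had 6 peaks, or 5.03 per 100 kb (1.85 to 10.9), and *Hoxc* had 9, or 7.50 per 100 kb (3.43 to 14.2). The intervals of *Hoxa* and *Hoxd* did not overlap at day 9, by a narrow margin (7.15 against 7.07), whereas those of *Hoxb* and *Hoxc* overlapped both. Those of *Hoxa* and *Hoxd* overlapped at day 28, being 4.48 to 17.2 and 0.0248 to 5.46. They also overlapped at day 0, being 0.578 to 8.19 and 0.237 to 7.07. All widened protein-coding genes held 3.74 peaks per 100 kb at day 9, against 6.91 (4.70 to 9.81) for all *Hox* genes. The *Hoxd* interval held the density of all protein-coding genes in each list. Intervals here and below cover counting error only, and neighbouring peaks are not independent.

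The day 28 list gave *Hoxa* 9.34 peaks per 100 kb (10 peaks), *Hoxb* 6.71 (8 peaks), *Hoxc* 5.00 (6 peaks) and *Hoxd* 0.979 (1 peak). *Hoxb* was the cluster with more peaks at day 28 than at day 9. At day 0 the clusters held similar numbers, with 3 peaks at *Hoxa* and 2 at each of the others, and 2.01 per 100 kb over all *Hox* genes (0.918 to 3.81) against 1.61 for all protein-coding genes. All 3 *Hox* densities thus lay above those of all protein-coding genes, but the interval held the latter at day 0. At day 28 it did not, with 5.58 (3.61 to 8.23) against 2.52.

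**Figure D1:**
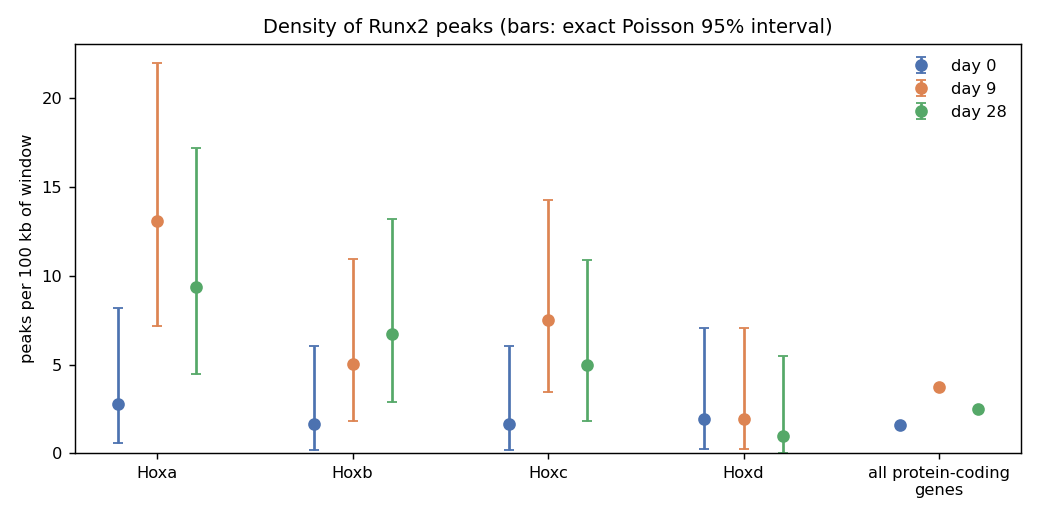
Runx2 peaks per 100 kb of widened *Hox* genes (y axis) for the 4 clusters and the 3 lists, with exact Poisson 95% intervals as bars and the density over all protein-coding genes for reference. *Hoxa* goes from 2.80 at day 0 to 13.1 at day 9, while *Hoxd* is at or below 1.96.

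**Figure D2:**
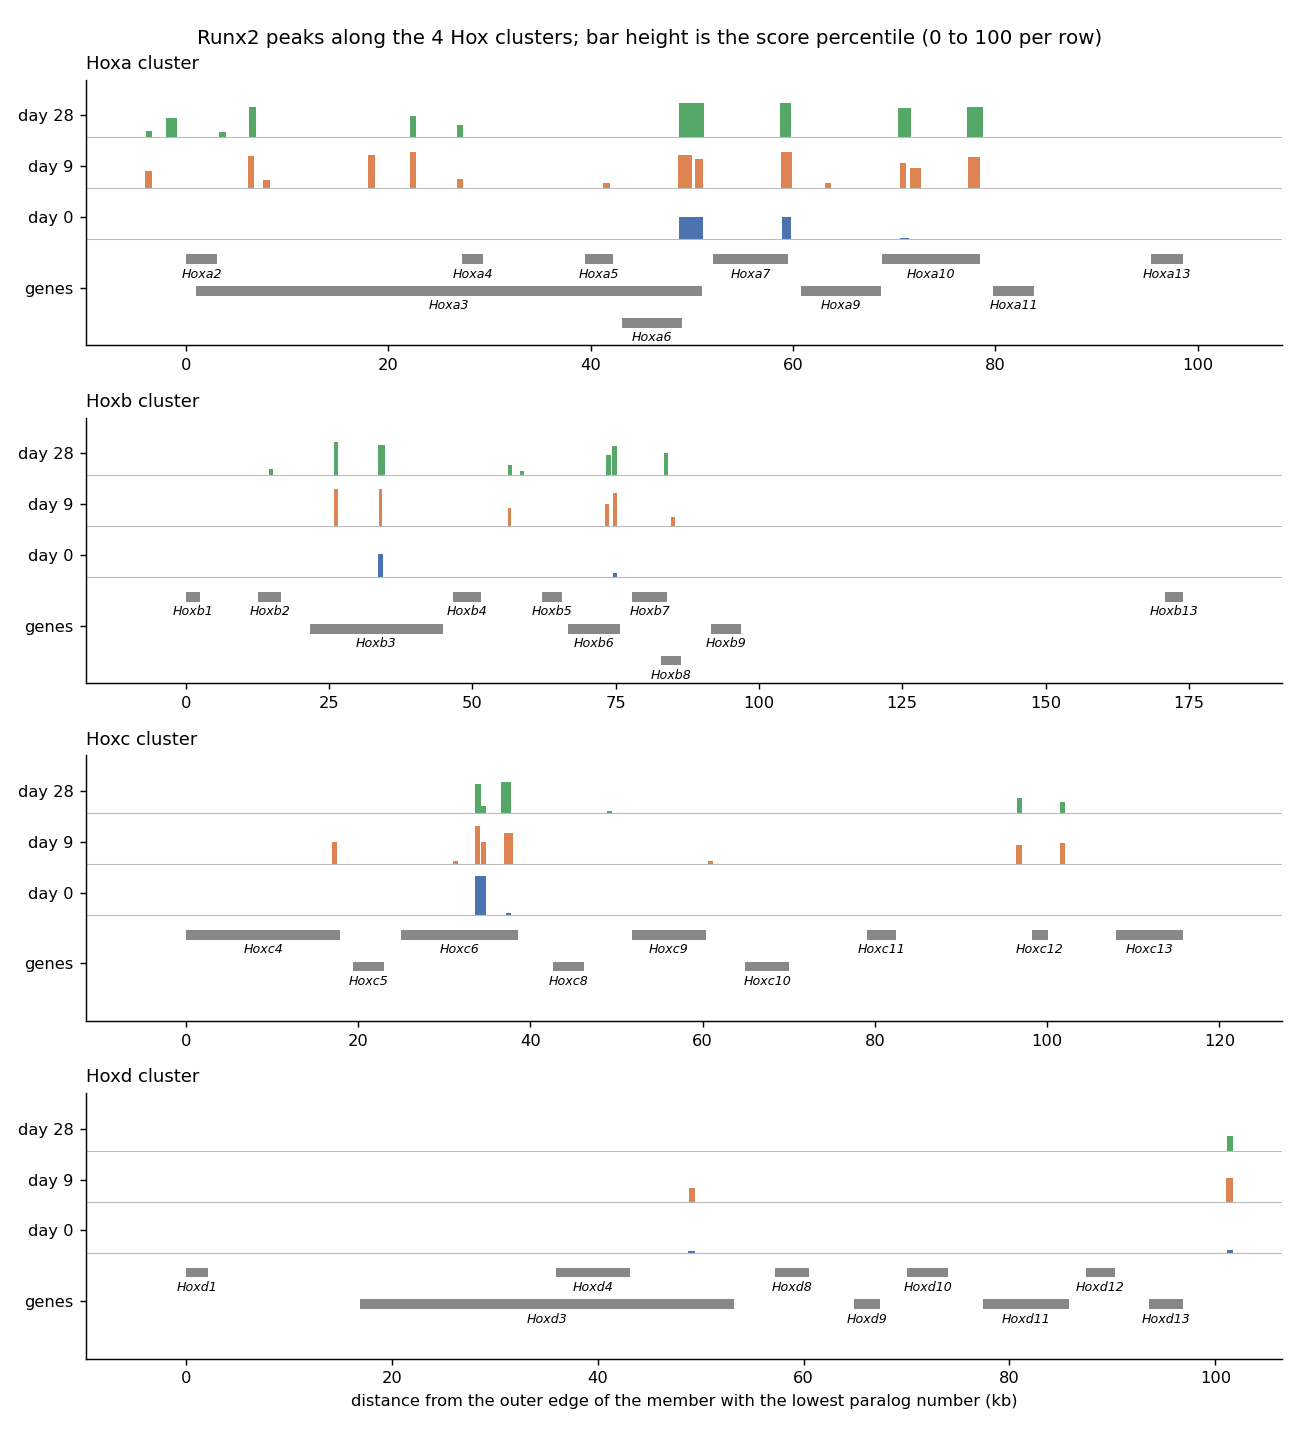
Map of the 4 clusters, with distance in kb from the outer edge of the member of lowest paralog number on the x axis, members as boxes, and 1 row of peaks per time point whose bar height is the score percentile within its list. Narrow peaks are widened to be visible, and low percentiles leave very short bars. Only peaks counted by the rule are drawn, so *Hoxb* peaks outside it are missing. The long empty stretch over *Hoxd8* to *Hoxd13* and the dense series over *Hoxa* can be seen.

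By gene, 12 of 38 members (31.6%) had at least 1 peak at day 0, against 55% of all protein-coding genes. The number was 24 (63.2%) at day 9, against 68.7%, and 20 (52.6%) at day 28, against 62.9%. At any time point 26 members (68.4%) had a peak, against 70.9% of all genes. *Hox* genes are short, with a median body of 4082.5 bp against 15420.5 bp for all protein-coding genes. Among genes of at most 10 kb, 8 of 33 *Hox* genes (24.2%) had a peak at day 0 against 36.7%, 19 (57.6%) at day 9 against 48.8%, and 17 (51.5%) at day 28 against 43.5%. At any time point there were 21 (63.6%), against 51.2%. The share of *Hox* genes with a peak was therefore below that of other genes at day 0 by either background, and at days 9 and 28 its side depended on whether long genes were in the background.

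The members with peaks in all 3 lists were 11: *Hoxa3*, *Hoxa6*, *Hoxa7*, *Hoxa9*, *Hoxa10*, *Hoxb3*, *Hoxb6*, *Hoxb7*, *Hoxc6*, *Hoxc8* and *Hoxd13*. A further 7 had peaks at days 9 and 28: *Hoxa2*, *Hoxa4*, *Hoxa11*, *Hoxb4*, *Hoxb8*, *Hoxc9* and *Hoxc12*. Peaks were present at day 9 alone at *Hoxa5*, *Hoxc4*, *Hoxc5*, *Hoxc10* and *Hoxc13*, and at day 28 alone at *Hoxb2* and *Hoxb5*. *Hoxd3* had 1 peak at days 0 and 9 each and 0 at day 28. The remaining 12 members had no peak in any list, namely *Hoxa13*, *Hoxb1*, *Hoxb9*, *Hoxb13*, *Hoxc11*, *Hoxd1*, *Hoxd4* and *Hoxd8* to *Hoxd12*.

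*Hoxa3* had the most peaks, with 1 at day 0, 9 at day 9 and 7 at day 28. The annotation holds 2 entries for *Hoxa3*, which were united into 1 body of 49981 bp, the longest of the members. This body starts between *Hoxa6* and *Hoxa7* and runs past *Hoxa4*, so peaks given to *Hoxa4*, *Hoxa5* and *Hoxa6* are also given to *Hoxa3*. *Hoxa7* shares with it only the region where the body starts. *Hoxa7* and *Hoxa9* each had 2, 4 and 2 peaks at days 0, 9 and 28, *Hoxc6* had 2, 4 and 3, and *Hoxb7* had 1, 3 and 3. Of the 31 day 9 peaks, 12 were given to 1 member, 16 to 2 and 3 to 3, so 18 members shared a peak with a neighbour and their counts are not separate observations.

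**Figure D3:**
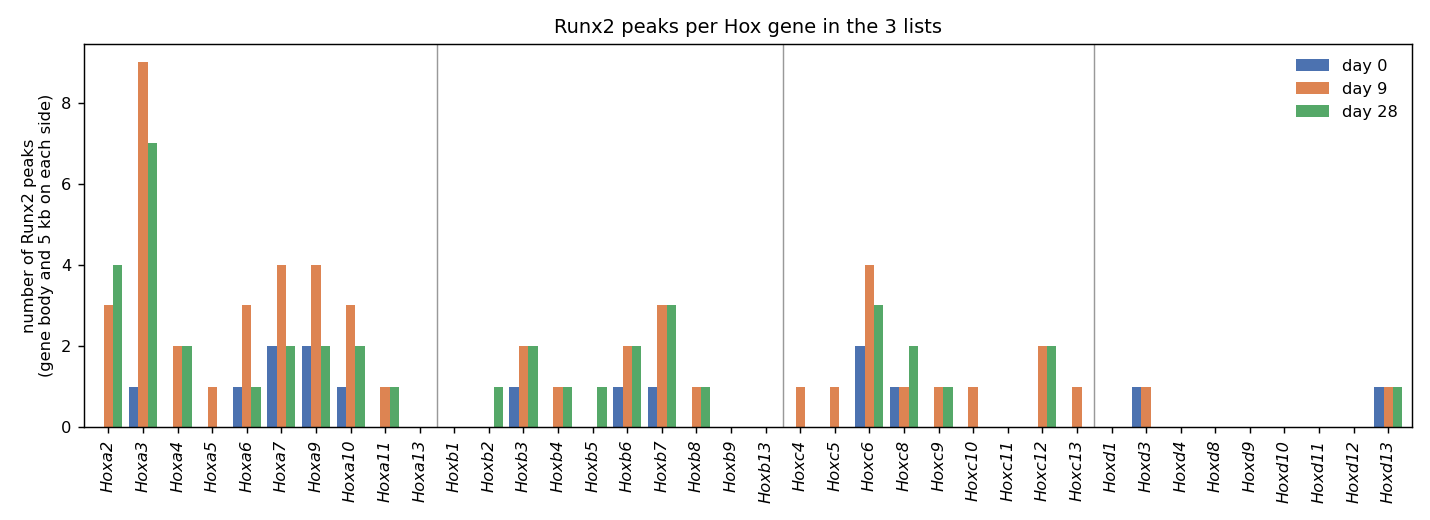
Number of Runx2 peaks (y axis) counted for each of the 38 *Hox* genes in order of paralog number, with colours for the 3 time points and lines between the clusters. Peaks near neighbouring genes are counted for each; *Hoxa3* reaches 9 at day 9, and 12 members have none.

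Arranged by paralog number, 8 of 11 members of groups 1 to 4, 10 of 11 of groups 5 to 8 and 8 of 16 of groups 9 to 13 had a peak at any time point, against 70.9% of all protein-coding genes and 51.2% of those of at most 10 kb. With 11 to 16 members each, these numbers are read as a description. Paralog groups 3, 6 and 7 were occupied most fully, since every member (3, 3 and 2 genes) had a peak at day 0 and at day 9. At these time points 55% and 68.7% of all protein-coding genes had one, and 36.7% and 48.8% of those of at most 10 kb. Group 6 and group 7 also had a peak at every member at day 28. Group 1 had none among its 2 members. *Hoxa3*, *Hoxa6* and *Hoxa7* share a region, as do *Hoxb6* and *Hoxb7*, so these counts rest on fewer regions than genes. Of the 34 regions, 15 had their nearest *Hox* TSS in groups 1 to 4, 11 in groups 5 to 8 and 8 in groups 9 to 13.

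Between neighbouring regions, the longest stretch without a peak was in *Hoxd*. No region lay between the one upstream of *Hoxd13* and the one in *Hoxd3*, a stretch of 51.7 kb that holds the bodies of *Hoxd8* to *Hoxd13*. The longest such stretch was 35.4 kb in *Hoxc*, with *Hoxc10* and *Hoxc11*, 21.4 kb in *Hoxb*, with *Hoxb4*, and 14.0 kb in *Hoxa*, with no complete gene. In each cluster at least 1 outer stretch, from the outermost peak over the cluster to the next beyond it, was longer. On the side of the low paralog numbers they measured 66.9 kb in *Hoxd*, with *Hoxd4* and *Hoxd1*, 47.9 kb in *Hoxb*, with *Hoxb1*, and 7.21 kb in *Hoxa*. The posterior end had 64.6 kb in *Hoxa*, with *Hoxa11* and *Hoxa13*, 83.3 kb in *Hoxb*, with *Hoxb13*, and 84.0 kb in *Hoxd*, beyond the region upstream of *Hoxd13*. *Hoxc* had 80.9 kb beyond *Hoxc13* and 36.5 kb beyond *Hoxc4*, neither with a complete *Hox* gene.

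Regions occupied at all 3 time points numbered 8 of 34, or 23.5% (exact binomial 95% interval 10.7 to 41.2), against 27.4% of all Runx2 regions. Peaks at days 9 and 28 alone were seen in 10 (29.4%, against 21.1% of all regions), at day 9 alone in 9 (26.5%, against 34.5%) and at day 28 alone in 6 (17.6%, against 7.59%). No *Hox* region had a peak at day 0 alone, against 5.6% of all regions, and 1 had peaks at days 0 and 9 alone, against 1.69%. None had peaks at days 0 and 28 alone, against 2.06%. The interval of each *Hox* share held the share of all regions, so no pattern stood apart from the rest by more than the counting error. The 9 peaks of day 0 were all in regions also occupied at day 9, and 8 of them in regions also occupied at day 28. Of the 25 *Hox* peaks of day 28, 19 were in regions occupied at day 9, and of the 31 of day 9, 21 were in regions occupied at day 28.

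Scores are MACS p-values on a negative log10 scale, multiplied by 10. They depend on read depth, so each peak was also given its percentile within its own list, in which a value of 50 is the middle. The *Hoxc6* intron region, which holds TGTGGT, had the highest rank at day 0, with a score of 838 and percentile 87.5. It had 2 peaks at day 9, of which the higher scored 1393 (percentile 85.9), and 2 at day 28, of which the higher scored 563 (percentile 64.6). *Hoxc6* patterns the thoracic region. The second *Hoxc6* region, 954 bp upstream of the nearest *Hoxc6* TSS, scored 105.5 (percentile 2.79) at day 0, 534 (68.6) at day 9 and 712 (70.5) at day 28, so it stood near the bottom of the day 0 list and above the middle of the other lists.

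In *Hoxb3*, which acts in hindbrain and pharyngeal arch patterning, the intron region with the motif scored 284, 1210.2 and 645 at days 0, 9 and 28, at percentiles 51.9, 83.7 and 68.2. The second *Hoxb3* region, 1717 bp upstream of the nearest *Hoxb3* TSS and without the motif at its centre, had no day 0 peak and scored 1198 at day 9 (percentile 83.6) and 892 at day 28 (percentile 75.6). Their ranks in the 3 lists refer to lists of different length. Farther along, the *Hoxb6* intron region had percentiles of 9.34, 74.6 and 66.0 over the 3 lists in order of time.

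In *Hoxa*, the region over the *Hoxa7* start, 169 bp from the TSS, scored 268, 1080.3 and 994 at days 0, 9 and 28, or percentiles 49.5, 81.8 and 78.0. The region between *Hoxa6* and *Hoxa7*, where the long *Hoxa3* transcripts begin, had percentiles of 50.0, 75.7 and 77.5, the day 9 value being the higher of 2 peaks. The *Hoxa3* intron region without the motif reached percentile 81.1 at day 9 and 47.0 at day 28, with no day 0 peak. These are the 3 highest *Hoxa* regions at day 9. At *Hoxa10*, a posterior gene that patterns the limb and the lumbar spine, 1 region scored 106 (percentile 3.13) at day 0, 340.4 (57.6, the higher of 2 peaks) at day 9 and 592 (66.0) at day 28. The other *Hoxa10* region had percentiles of 71.2 at day 9 and 68.6 at day 28.

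The 2 *Hoxd* regions were among the weaker ones. The one 4568 bp upstream of *Hoxd13*, the most posterior gene of its cluster and one needed for digit formation, scored 112, 286 and 203 at days 0, 9 and 28, or percentiles 6.33, 52.5 and 33.0. This region was also upstream of *Evx2*, a neighbour of the cluster. The nearest TSS of any gene was not that of *Hoxd13* but one 3881 bp from the day 0 peak centre. The *Hoxd3* intron region scored 108 (percentile 4.05) at day 0 and 164 (30.9) at day 9. The lowest *Hox* peak of the 3 lists, in a coding exon of *Hoxc13* at day 9, scored 100.96, near the threshold of 100.

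Most other regions were of middle or low rank. The region in an exon of *Hoxa3*, 3504 bp upstream of *Hoxa2*, had percentiles of 72.2 at day 9 and 68.2 at day 28. The *Hoxa3* body region with the motif, present at day 9 alone, scored 699.7 (percentile 74.2) and overlapped an exon of 5730596B20Rik. The *Hoxc4* intron region scored 266 (50.1) and the *Hoxc9* promoter region, 502 bp upstream of the TSS, 109 (6.26), both at day 9 alone. A motif at the centre thus occurred in peaks of high and of low rank. Of the 7 remaining regions that the rule names, that of *Hoxb7* had a peak at day 28 alone. The others lay between percentiles 20.4 and 49.8 in the day 9 list, and all 7 lay between 13.4 and 50.7 in the day 28 list. They lay at *Hoxa2*, *Hoxa4*, *Hoxb4*, *Hoxb6*, *Hoxb7* and, in 2 cases, *Hoxc12*.

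Over all *Hox* peaks, day 0 had a median percentile of 9.34 (distribution-free 95% interval from 3.13 to 51.9), day 9 one of 49.8 (from 39.4 to 71.2) and day 28 one of 44.6 (from 25.4 to 66.0). Of the 9 peaks of day 0, 5 stood at or below percentile 9.34 and 4 at or above 49.5, so the median fell at the edge of the lower set, and without the flank, which drops 1 peak, it was 29.4. Of the 8 regions with a peak in all 3 lists, 7 (87.5%) had a higher percentile at day 9 than at day 0, against 75.5% of the 18584 such regions in the genome. Of the 18 regions with peaks at days 9 and 28, the percentile was lower at day 28 in 14 (77.8%), against 71.4% of 32903. The lists differ in length at 1 threshold, and most shared regions of the genome moved the same way, so these *Hox* tallies are no result about *Hox* genes.

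**Figure D4:**
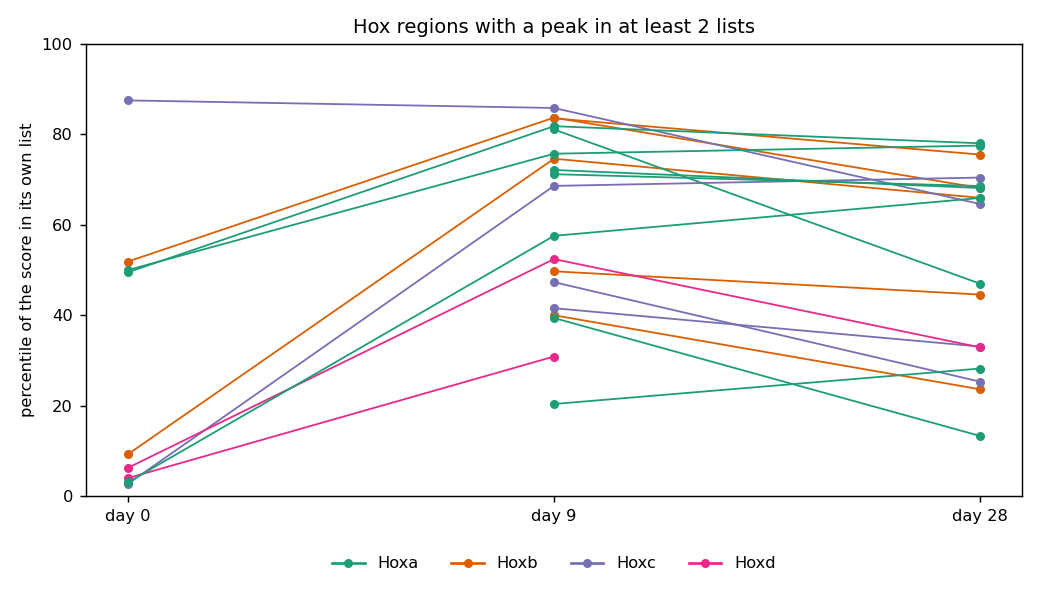
Score percentile within each list (y axis) at days 0, 9 and 28 (x axis) for the 19 *Hox* regions with peaks in at least 2 lists, each line being 1 region and colours marking the clusters. Of the 8 lines over all 3 lists, 7 end higher at day 9 than at day 0, and the *Hoxc6* intron line starts at 87.5 and ends at 64.6.

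Few *Hox* TSSs lay inside a Runx2 peak, while most regions were centred within genes. Of the 34 regions, 14 were centred in an intron, 6 in a coding exon, 5 in an untranslated exon, 2 in a promoter, 7 farther upstream, and 0 in intergenic sequence or just past a gene end. The counts of 0 follow in part from the rule, which takes only sequence near genes. A TSS of a protein-coding transcript lay inside a peak at 2 members (5.26%) at day 0, *Hoxa3* and *Hoxa7*, against 40.7% of protein-coding genes. At day 9 there were 3 (7.89%, with *Hoxa10* added), against 48.4%, and at day 28 there were 4 (10.5%, with *Hoxb7* added), against 48.3%. When a TSS within 1000 bp of a peak was counted, the members were 4, 12 and 7 (10.5%, 31.6% and 18.4%), against 43.6%, 53.2% and 51.1%, so the day 9 number depended strongly on the distance allowed. Seen from the peaks, the centre lay within 1000 bp of a TSS in 3 of 9, 13 of 31 (41.9%, 24.5 to 60.9) and 8 of 25 *Hox* peaks, against 35.7%, 21.1% and 27.5% of the lists.

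The share of *Hox* peaks with the Runx motif lay below that of their list at each time point. TGTGGT lay within 50 bp of the centre of 1 of 9 *Hox* peaks of day 0 (11.1%, exact binomial 95% interval from 0.281 to 48.2), 5 of 31 of day 9 (16.1%, from 5.45 to 33.7) and 1 of 25 of day 28 (4%, from 0.101 to 20.4). The shares of all peaks were 15.9%, 25.2% and 20.7%, inside the *Hox* interval at days 0 and 9 and just outside it at day 28. Among all peaks within the quartiles of GC content and width of the *Hox* peaks, the centre shares were 19.6%, 20.8% and 19.6%, inside the *Hox* interval at each time point. Anywhere in the peak, the motif was found in 3 of 9, 8 of 31 and 7 of 25 *Hox* peaks (33.3%, 25.8% and 28.0%), against 61.4%, 58.7% and 61.6% of all peaks. The upper interval bounds at days 9 and 28 were 44.6% and 49.4%, below the shares of all peaks. In the peaks of like GC content and width, the whole-peak shares were 60.5%, 53.6% and 60.5%. *Hox* peaks had a median width of 743, 498 and 674 bp, against 917, 554 and 763 bp in the lists.

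**Figure D5:**
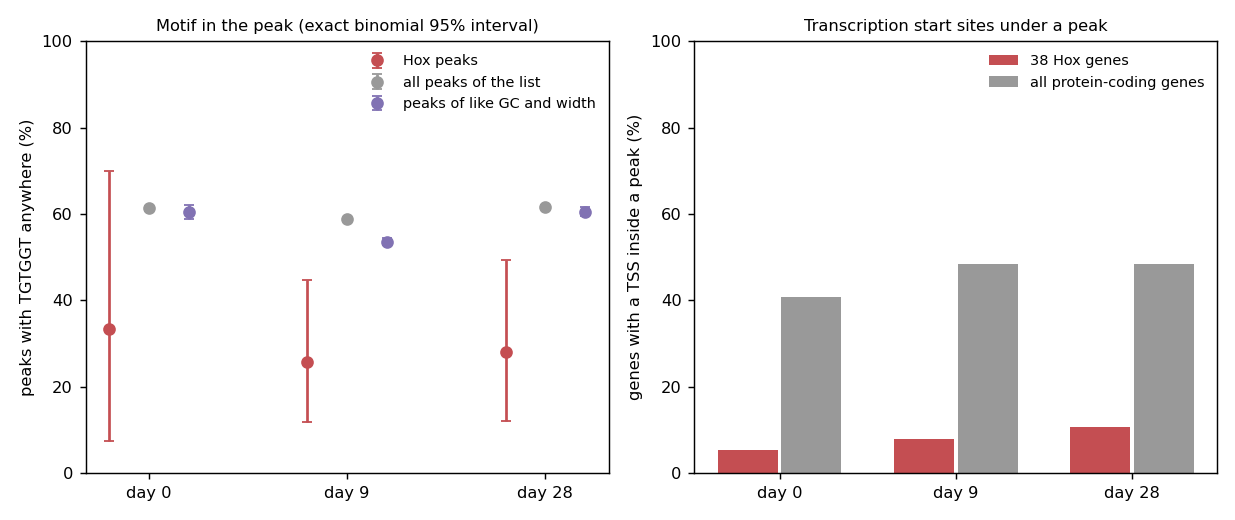
Left, share of peaks in percent (y axis) with TGTGGT anywhere in the peak, for *Hox* peaks, all peaks of the list and peaks of like GC content and width, with exact binomial 95% intervals. Right, share of the 38 *Hox* genes and of all protein-coding genes with a TSS inside a peak (bars, percent): the *Hox* shares are 33.3%, 25.8% and 28.0% on the left and 5.26%, 7.89% and 10.5% on the right, each below its background.

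The *Hox* windows themselves held 250 copies of TGTGGT or its reverse complement in 448.4 kb, or 0.558 per kb, from 0.484 in *Hoxc* to 0.676 in *Hoxd*, the cluster with the fewest peaks. *Hox* peaks held 0.460, 0.588 and 0.481 copies per kb at days 0, 9 and 28, against 1.06, 2.12 and 1.39 per kb in all peaks. *Hox* peaks were also richer in CpG: the median observed to expected ratio in the central 500 bp was 0.485, 0.579 and 0.528, against 0.317, 0.250 and 0.283, and median GC was 56.2%, 58.6% and 54.6%, against 53.0%, 52.8% and 52.8%. The part of base composition in the motif count was not tested.

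Of the 12 Runx2 regions over the *Hoxb* cluster, the rule for the flank counted 9, and 1 of those left out held a strong peak. Upstream of *Hoxb9*, 9356, 9490 and 9329 bp from it at days 0, 9 and 28, a peak scored 191, 1234 and 653 (percentiles 33.9, 84.0 and 68.4) and is not counted above. It lay 3063, 3197 and 3036 bp from *Mir196a-1*, a microRNA gene of the cluster. The farthest peaks inside the rule lay 4274 bp from *Hoxd13* at day 0, and 4701 and 4669 bp from *Hoxb4* at days 9 and 28. *Mir196b* in *Hoxa* had a peak within 2835 bp in every list, while *Mir10b* in *Hoxd* had none within 9737 bp.

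Other homeobox genes and the neighbours of the clusters were counted in the same way, against 55%, 68.7% and 62.9% of all protein-coding genes, and 36.7%, 48.8% and 43.5% of those of at most 10 kb, at days 0, 9 and 28. All 9 TALE genes (*Pbx*, *Meis* and *Pknox*), whose proteins bind DNA together with Hox proteins, had a peak at every time point, but their median body of 138529 bp is much longer. The 9 *Dlx* and *Msx* genes, which act in skull and limb development and have a median body of 5208 bp, had a peak at 4, 9 and 9 genes at days 0, 9 and 28. The neighbours of the clusters and the ParaHox genes, 8 in all, had one at 2, 3 and 2, among them *Evx2*, through the region upstream of *Hoxd13*. The 9 genes just outside the clusters, whose median body of 59145 bp is also longer than that of *Hox* genes, had one at 6, 8 and 7.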

How the data were processed

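Runx2 ChIP-Seq libraries of 36 bases were processed by the authors. Per the submitters' processing notes the tools were CASAVA 1.6, Bowtie 0.12.8 and MACS 1.4.1, with mouse assembly mm9, and peaks below a p-value of 1e-10 were kept after pooling the replicates. The authors deposited 1 list per time point with a score per peak, the negative log10 p-value of MACS multiplied by 10, which was used here only within a list. Pooled lists give no replicate error.

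Positions were counted from 1 on NCBIM37. *Hox* genes and TSSs were taken from GENCODE M1, and all 38 symbols matched. Peaks sharing at least 1 bp were merged into regions. A score percentile is the mid-rank within the list. Intervals are exact binomial or exact Poisson 95% intervals, or distribution-free for medians, and cover counting error only. TGTGGT and ACCACA were searched in the sequence, and promoters were taken as the 1000 bp before a TSS and the 150 bp after it.

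Regions given with values were those with peaks in at least 2 lists, those with the highest percentile of a cluster in a list and that nearest to a TSS. The regions of *Hoxc4*, *Hoxc13* and the *Hoxa3* body with the motif were added after their values were seen. The members, gene lists and tests were chosen with earlier results of these data known. SciPy 1.17.1, Matplotlib 3.10.9 and NumPy 2.4.6 were run under Python 3.11.15, and the procedures were tested on simulated data.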

Additional observations from a re-analysis of the deposited data

How the results depend on the processing

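No paired analysis was possible because the replicates of each time point were pooled into 1 list before deposit, and no library could be left out. Of 78 values recomputed under an alternative, 51 stayed within the limit (1.5 times a count, or the exact interval of a share). A p-value of 1e-20 left 4 peaks and 6 of 38 members at day 0, where 44.9% of all protein-coding genes had a peak. It also left 16 peaks at day 28, 20 regions, and 4 regions with peaks at all 3 time points. A p-value of 1e-50 left 1, 11 and 10 peaks and 1, 13 and 12 of 38 members at days 0, 9 and 28. Of all protein-coding genes, 22.7%, 50.4% and 47% had a peak at 1e-50. That threshold left 12 regions, 1 of them at all 3 time points, and 0% of day 0 peaks with TGTGGT at the centre. A TSS lay inside a peak at 0 and 1 members at days 0 and 9 (0% and 2.63%), against 13.8% and 37.2% of protein-coding genes. With equal numbers of top-scoring peaks per list there were 12 peaks and 13 members at day 9 and 14 peaks at day 28, so day 28 then had the most *Hox* peaks. Day 9 had the most under 5 of 6 alternatives, and day 0 the fewest under all 6. With no flank, 13 members had a peak at day 9 and 11 at day 28, and with a flank of 10 kb 19 had one at day 0. The share of all genes was not computed for these flanks or for equal numbers of peaks. Searched in the whole peak, TGTGGT was in 28.0% of day 28 peaks, and 16.1% of day 9 centres lay within 500 bp of a TSS. Chosen after the data were seen, a TSS within 1000 bp of a peak gave 4, 12 and 7 members at days 0, 9 and 28. The TSS counts for the first base of each gene and at 1e-50, the motif shares in peaks of like GC and width, the tally of percentiles over all shared regions, the share of peaks in gene windows and the background of short genes were also chosen after the data were seen. Read depth was not used here, and its part in the counts was not tested.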
